A study of Mus musculus with 568 samples.

Results

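*Dazl* and *Ddx4* are the 2 genes described here, chosen by name. They are 2 of 16335 genes in the bulk expression table and 2 of 15718 genes in the single-cell table of a mouse series on X-chromosome inactivation in germ cells made in vitro. *Dazl* (ENSMUSG00000010592) lies on the minus strand of chromosome 17, at chr17:50279395-50293636, and *Ddx4* (ENSMUSG00000021758) on the minus strand of chromosome 13, at chr13:112598333-112652475 (mm10, GENCODE vM21). No other annotated gene overlaps either of them.

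All cells came from 1 female hybrid ESC line, 129S1/SvImJ by CAST/EiJ, called XRep. Its 129S1/SvImJ X chromosome carries a GFP gene at *Hprt* (XGFP) together with a truncated *Tsix*, which directs inactivation to that X, and its CAST/EiJ X carries tdTomato (XTomato). The line also holds rtTA and doxycycline-inducible *Prdm1*, *Prdm14* and *Tfap2c* transgenes, so that primordial germ cell-like cells (PGCLCs) were induced by transcription factors and not by cytokines. The bulk groups were unsorted ESCs, unsorted epiblast-like cells (EpiLCs), and PGCLCs after 5 days of doxycycline, sorted as SSEA1+/CD61+ and XTomato+ and then by GFP into XGFP+ PGCLCs and XGFP- PGCLCs, with 4 libraries each. XGFP- PGCLCs have silenced the GFP reporter of the X that carries it. For the single cells, sorted PGCLCs were cultured for 6 days in reconstituted ovaries (rOvaries). Their partners were somatic cells of E13.5 female gonads and mesonephros, from CD1/ICR mice by the study's methods. Cells from XGFP+ PGCLCs that were again XGFP+ form the XGFP+ constitutive population. Cells from XGFP- PGCLCs were sorted by GFP into 3 populations, labelled XGFP+, XGFPint. and XGFP- and called XGFPhigh, XGFPintermediate and XGFPlow below. ESCs of the same hybrid strain were sorted as single cells too.

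DAZL is a germ cell RNA-binding protein of the DAZ family, which binds U-rich sites in the untranslated ends of its target mRNAs and recruits poly(A)-binding protein, so that these mRNAs are kept and translated. DDX4, also called MVH or VASA, is a DEAD-box RNA helicase of the germ granules (nuage), where the piRNA machinery that silences transposons is assembled. Both genes are turned on in mouse germ cells around the time when they settle in the gonad. DNA methylation of their CpG-rich promoters keeps both genes off in somatic cells, and the methylation is removed in germ cells. Both are widely used as markers of germ cells that have passed the earliest primordial stage, and *Ddx4* mRNA has itself been reported as bound by DAZL.

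The promoter windows are shown because the methylation that keeps both genes off acts on CpG sites. Every CpG is in capitals in the first pair of sequences, which run 5′ to 3′ on the minus strand and end at the first base of the annotated exons. The sequences are RefSeq's for GRCm38.p6. For *Dazl* the stretch is chr17:50293637-50293870, with 19 CpG sites in 234 bases, and for *Ddx4* it is chr13:112652476-112652560, with 3 in 85 bases.
Dazl: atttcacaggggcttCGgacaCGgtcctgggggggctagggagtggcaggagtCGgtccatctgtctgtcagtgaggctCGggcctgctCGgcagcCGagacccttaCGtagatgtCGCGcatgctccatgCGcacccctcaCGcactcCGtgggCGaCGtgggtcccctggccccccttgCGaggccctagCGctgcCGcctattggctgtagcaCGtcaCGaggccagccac
Ddx4: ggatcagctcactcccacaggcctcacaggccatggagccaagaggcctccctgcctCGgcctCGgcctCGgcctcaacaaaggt

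Over windows of 300 bases, from 250 bases before to 50 bases after the RefSeq start, *Dazl* held 28 CpG sites and *Ddx4* 38. The median of 32851 such mouse windows was 7 CpG sites, and the windows of *Dazl* and *Ddx4* held more than 85.8% and 95% of them. Both windows were searched on both strands for the E-box CACGTG and for TTCCCGC, the core of an E2F site. The *Ddx4* window held each of them 1 time, and the *Dazl* window held neither. Both stretches lie in an annotated untranslated first exon of *Ddx4*, the first at chr13:112652325-112652348 and the second, with the motif on the plus strand and so printed as its reverse complement, at chr13:112652431-112652455. CACGTG was in 7.15% of all windows, TTCCCGC in 4.6% and both in 0.457%. The motif is in capitals.
Ddx4 E-box: gtccgcccgCACGTGcagccgttt
Ddx4 E2F core: gtccatgggGCGGGAAgtcgcgcgc

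The bulk values are the authors' normalized counts, that is, reads per gene divided by a size factor of the library, with 29778299 to 46533858 reads on genes per library. Fold changes are on the log2(normalized count + 1) scale with their standard error (SE), from limma-trend over all 16 libraries, and a gene was called at a Benjamini-Hochberg adjusted p (FDR) below 0.001. Replicate numbers 1 to 4 come from the labels, which name no clone or culture. The study's text describes 2 clones with 2 technical replicates each, and its legends 4 biological replicates. If libraries of a group share a clone, fewer than 4 are independent, the p-values are too small, and they measure a spread that is partly technical. In bulk samples, fewer cells that express a gene and less RNA per cell cannot be told apart. The groups matched their names by listed markers: the summed normalized count of 6 ESC markers was lowest at 181787 in ESCs and highest at 80608 in the other groups, that of 4 EpiLC markers was at least 51893 in EpiLCs and at most 4115 elsewhere, and that of 6 PGCLC markers was at least 24237 in both PGCLC groups and at most 9104 elsewhere.

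*Dazl* was highest in XGFP+ PGCLCs and close to its ESC and EpiLC levels in XGFP- PGCLCs. Its normalized counts in replicates 1 to 4 were 490.6, 695.6, 498.4 and 630.1 in ESCs. In EpiLCs they were 281.2, 190.9, 309 and 190.6, below every ESC library. XGFP+ PGCLCs had 2874.7, 4941.4, 3276.5 and 8074, above every library of the other groups. XGFP- PGCLCs had 128.3, 297.7, 161.6 and 802.9, so that replicate 4 alone lay above the ESCs and replicates 1 and 3 lay below the EpiLCs. The mean was 578.7 ± 100.9 in ESCs, 243 ± 61.3 in EpiLCs, 4792 ± 2364 in XGFP+ PGCLCs and 348 ± 312 in XGFP- PGCLCs (SD, n = 4 each). At its mean level, *Dazl* stood above 90.9% of all genes in XGFP+ PGCLCs and above 45.2% in XGFP- PGCLCs.

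*Ddx4* followed another order, with its highest level in EpiLCs, which are not germ cells. Its normalized counts in replicates 1 to 4 were 143.7, 151.2, 206.1 and 216.1 in ESCs and 494.3, 614.1, 509.7 and 510.5 in EpiLCs. XGFP+ PGCLCs had 428.9, 470.6, 429.8 and 513.2, which overlap the EpiLC values. XGFP- PGCLCs had 186.3, 188, 219.3 and 301, which overlap the ESC values and lie below every XGFP+ and EpiLC library. The means were 179 ± 37.1, 532 ± 55.1, 461 ± 40.1 and 224 ± 53.7 for ESCs, EpiLCs, XGFP+ and XGFP- PGCLCs (SD, n = 4 each). *Ddx4* thus stood above 52% of all genes at most, while the 4 libraries of a group differed by up to 1.62 times for *Ddx4* and up to 6.26 times for *Dazl*.

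**Figure D1:**
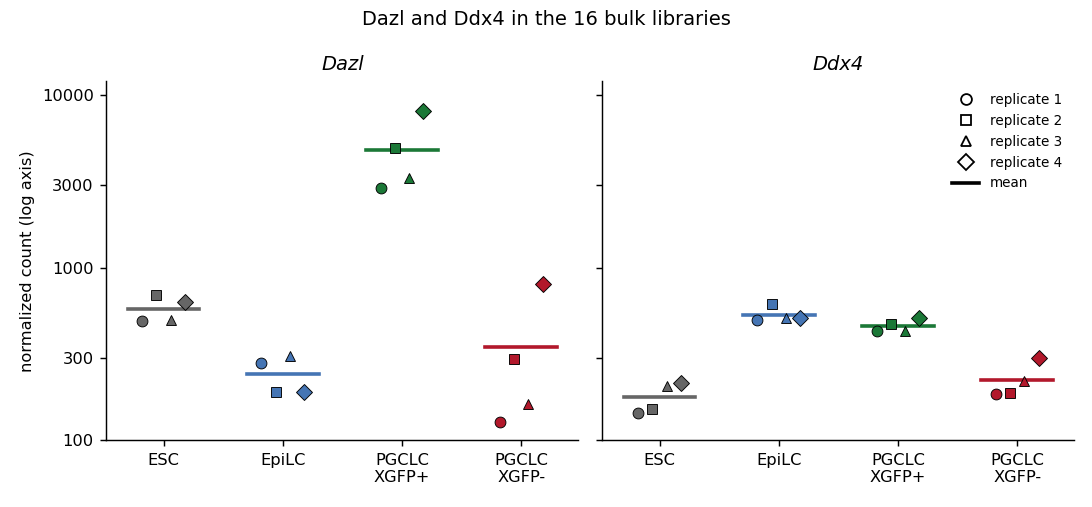
Normalized counts (log axis) of *Dazl* (left) and *Ddx4* (right) in the 4 bulk groups, with 1 point per library, its shape giving the replicate number, and a bar at the mean. *Dazl* is highest in XGFP+ PGCLCs (2874.7 to 8074), whereas *Ddx4* is at a like level in EpiLCs (494 to 614) and XGFP+ PGCLCs (429 to 513).

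From ESCs to EpiLCs the 2 genes moved apart. *Ddx4* rose, with a log2 fold change of 1.58 (SE 0.155, limma FDR = 4.0e-08), in a comparison that called 47.8% of 16281 genes tested. The value for *Dazl* was -1.27 (SE 0.416, limma FDR = 0.0119), short of the threshold, although its EpiLC and ESC libraries did not overlap. Summed over 6 gonadal somatic markers, EpiLCs had 2932.3 to 5387 normalized counts against 649 to 929 in ESCs, and over 3 endothelial markers 195 to 354 against 562 to 629; their part in the change of *Ddx4* was not tested. Fitted on ESCs and EpiLCs alone, without the wider spread of the PGCLC libraries, *Dazl* passed with the same fold change (SE 0.18, limma FDR = 6.3e-05).

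XGFP+ PGCLCs differed from EpiLCs in *Dazl*, which rose by a log2 fold change of 4.21 (SE 0.416, limma FDR = 3.7e-08), where 57.3% of genes were called. *Ddx4* did not pass in the same comparison, at -0.21 (SE 0.155, limma FDR = 0.234). Against ESCs, both were higher in XGFP+ PGCLCs, *Dazl* by 2.94 (SE 0.416, limma FDR = 4.8e-06) and *Ddx4* by 1.38 (SE 0.155, limma FDR = 2.7e-07), where 49.9% of genes were called.

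XGFP- PGCLCs had less of both mRNAs than XGFP+ PGCLCs sorted from the same kind of culture. *Dazl* fell by 4.05 on the log2 scale (SE 0.416, limma FDR = 3.4e-07) and *Ddx4* fell by 1.06 (SE 0.155, limma FDR = 1.9e-05), where 23.8% of genes were called. In each pair of libraries with the same number, both genes were lower in the XGFP- library. *Dazl* was highest in replicate 4, then in 2, 3 and 1, in both sorted fractions, and *Ddx4* was highest in replicate 4 in both. The 6 PGCLC markers together, of which *Prdm1*, *Prdm14* and *Tfap2c* are also transgenes, had a summed normalized count of 24237 to 25619 in XGFP+ and 25439 to 27004 in XGFP- PGCLCs. The 6 ESC markers together were lower in XGFP- PGCLCs, at 53804 to 59796 against 71710 to 80608, and 3 endothelial markers higher, at 232.9 to 331.8 against 98.9 to 120.9. The part of these markers in the difference of *Dazl* and *Ddx4* was not tested.

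Relative to the earlier stages, *Ddx4* in XGFP- PGCLCs was lower than in EpiLCs, by a log2 fold change of -1.27 (SE 0.155, limma FDR = 4.9e-07), in a comparison that called 61.9% of genes. *Dazl* did not pass there, at 0.16 (SE 0.416, limma FDR = 0.729), and without XGFP- replicate 4 the value was -0.37 (limma FDR = 0.289). Against ESCs, neither gene passed in XGFP- PGCLCs, where 59.4% of genes were called. *Dazl* was at -1.10 (SE 0.416, limma FDR = 0.0225), and without XGFP- replicate 4 it was at -1.64 and passed (limma FDR = 1.3e-04). *Ddx4* was at 0.31 (SE 0.155, limma FDR = 0.0745).

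The ratio of the 2 genes within a library does not depend on how libraries were scaled. As log2 of *Dazl* over *Ddx4* normalized counts, it was 1.69 ± 0.39 in ESCs, -1.16 ± 0.47 in EpiLCs, 3.26 ± 0.55 in XGFP+ PGCLCs and 0.27 ± 0.93 in XGFP- PGCLCs (SD, n = 4 each). EpiLCs were the group in which *Ddx4* exceeded *Dazl* in every library. Per kilobase of exon, *Dazl* reads were 5.29 to 12.4 times the *Ddx4* reads in XGFP+ PGCLCs, 1.91 to 3.63 times in ESCs and 0.543 to 2.1 times in XGFP- PGCLCs, and *Ddx4* reads were 2.09 to 4.08 times the *Dazl* reads in EpiLCs. The ratio differed in 5 of 6 pairs of groups (exact two-sided permutation test, n = 4 each, p = 0.0286, the smallest this design allows, adjusted p = 0.0343 over the 6 pairs). Taken as pairs by replicate number, as the numbers of the XGFP+ and XGFP- libraries allow, none passed, since 4 pairs cannot go below an exact permutation p of 0.125. XGFP- PGCLCs against ESCs did not pass, with a difference of -1.42 (exact permutation p = 0.0571, adjusted p = 0.0571). For XGFP- PGCLCs against EpiLCs, leaving out any 1 of the EpiLC libraries gave an adjusted exact p of 0.0857.

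**Figure D2:**
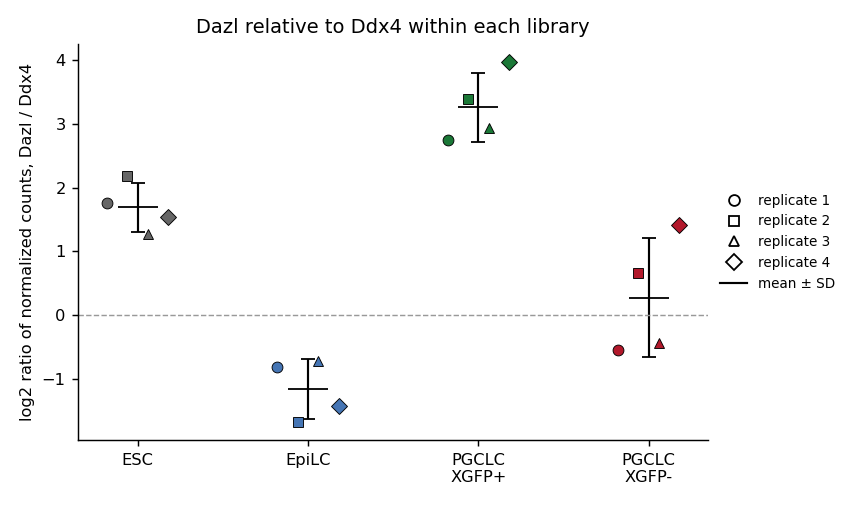
Log2 ratio of *Dazl* to *Ddx4* normalized counts in each of the 16 bulk libraries (points, shape by replicate number), with the mean and SD of each group; the dashed line marks equal counts. EpiLC libraries lie below the line (-1.68 to -0.72) and XGFP+ PGCLC libraries above it (2.74 to 3.97), with XGFP- PGCLC libraries on both sides (-0.54 to 1.41).

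The partners of DDX4 in the nuage and the piRNA pathway were measured for 14 of 15 listed genes, *Tdrd6* having no row. Between EpiLCs and ESCs, 8 were higher and 1 lower in EpiLCs, where 24.9% of all genes were higher and 22.9% lower, with a median log2 fold change of 1.23 against 0.01 over all genes. The 8 genes higher in EpiLCs, as *Ddx4* was, were *Tdrd1* (5.38), *Tdrd5* (4.54), *Mael* (3.21), a gene of piRNA-directed silencing, *Piwil4* (3.16), *Tdrd7* (2.25), *Mov10l1* (1.89), *Tdrkh* (1.26) and *Ddx25* (1.21), and the gene that was lower was *Tdrd9* (-1.20). XGFP+ PGCLCs had 9 higher and 0 lower than ESCs, with a median of 1.31, where 25% of all genes were higher. XGFP- PGCLCs had 6 higher and 2 lower than ESCs, with a median of 0.43, where 59.4% of all genes were called, so that this count is near the background. In XGFP- against XGFP+ PGCLCs, 5 were lower, 2 higher and 7 were not called, where 12.5% of all genes were lower and 11.3% higher, with a median of -1.06 against 0.01 over all genes. The 5 lower genes were *Gtsf1*, a cofactor of PIWI proteins, which fell by 3.35, the co-chaperone gene *Fkbp6*, which fell by 2.72, *Mael*, which fell by 2.41, the helicase gene *Mov10l1*, which fell by 1.47, and *Piwil2*, a PIWI protein gene, which fell by 1.44. *Gtsf1* was at 1.02 to 5.15 normalized counts in XGFP- PGCLCs. The Tudor domain gene *Tdrd5* (1.15) and the helicase gene *Ddx25* (1.09) were higher in XGFP- PGCLCs, against the direction of *Ddx4*.

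Of the mRNAs reported as DAZL targets, 10 of 10 were tested between XGFP- and XGFP+ PGCLCs, where 23.8% of all genes were called. Of the 9 reported here, 3 were lower, 1 higher and 5 were not called. Lower in XGFP- PGCLCs were *Tex19.1* (-2.36), *Sycp3* (-2.07), which encodes a synaptonemal complex protein, and *Ddx4*. The caspase gene *Casp2* (0.33) was higher. The median of all 10 was -0.02 against 0.01 over all genes. *Tex19.1* has a close paralog, so its reads may be split between both.

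Of 9 genes of the DAZ family and of listed DAZL partners, 1 was called between XGFP- and XGFP+ PGCLCs, against 23.8% of all genes. It was *Dynll1*, a dynein light chain gene, at -0.41 (SE 0.0728, limma FDR = 1.4e-04). The median of the 9 was -0.09. The family member *Boll* was at -0.57 (limma FDR = 0.0263), short of the threshold. Among other germ cell RNA-binding protein genes, *Nanos1* was lower (-1.50), *Dnd1* higher (0.62) and *Nanos3* not called (-0.67), with *Nanos2* without a row. Of 4 helicase genes related to *Ddx4*, *D1Pas1* was lower (-2.86) and the other 3 were not called (-0.18 to 0.04). *D1Pas1* is a near copy of *Ddx3x*, so its reads are uncertain, and *Ddx3y* had no row.

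The bulk profiles of *Dazl* and *Ddx4* were not alike. Over the 16 libraries, which fall into 4 groups, Pearson's r between them was 0.30, which placed *Ddx4* at rank 3160 of 11701 genes for likeness to *Dazl*. The genes most like *Dazl* were *Hat1*, a histone acetyltransferase gene (r = 0.96), *Prpsap2* (0.96) and the Tudor domain gene *Rnf17* (0.95). Those most like *Ddx4* were *Dusp9*, a phosphatase gene on the X chromosome (0.96), the cation channel gene *Trpc1* (0.95) and *Palm* (0.94). These are correlations across libraries that share a group and carry no p.

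In single cells the values are read counts from full-length libraries, with 1 cell per well and 1 rOvary experiment per population as far as the labels show, so populations were not tested against each other. A cell needed 4000 detected genes or more, 10000 reads or more and a mitochondrial share of reads up to 5%. Of 518 rOvary wells 462 passed, among them 88 XGFP+ constitutive and 125 XGFPhigh cells, and the wells left out were 6 XGFP+ constitutive, 19 XGFPhigh, 16 XGFPintermediate and 15 XGFPlow. All 24 ESCs passed. Median reads per kept cell were 354149, 636623, 645474, 640902 and 1103780 in that order. Levels are in RPM, reads of the gene per 1000000 reads of the cell. A gene was taken as detected at 10 RPM, and intervals are exact (Clopper-Pearson) 95% intervals that cover counting error alone. The XGFP+ constitutive cells were on 1 lane with a few cells of the other rOvary populations, the remaining rOvary cells were on another lane, and the ESCs on another flowcell, so that ESCs and flowcell cannot be told apart.

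*Dazl* was detected in most rOvary cells of every population. Its share was 93.2% (85.7 to 97.5) in XGFP+ constitutive, 98.4% (94.3 to 99.8) in XGFPhigh, 92.2% (86.1 to 96.2) in XGFPintermediate and 81.8% (73.8 to 88.2) in XGFPlow cells. The median level was 1661, 1503, 3058 and 2414 RPM in that order, with quartiles of 2240 and 3834 in XGFPintermediate cells and of 356 and 3108 in XGFPlow cells. Of the 24 ESCs, 1 had *Dazl* (4.17%, 0.105 to 21.1), and the 10 empty wells, with at most 242 reads, held no *Dazl* or *Ddx4* read.

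*Ddx4* separated the populations more than *Dazl* did. Its median level was 15.1 RPM in XGFP+ constitutive and 14.4 in XGFPhigh cells, against 261.8 in XGFPintermediate and 114.2 in XGFPlow cells. It was detected in 56.8% (45.8 to 67.3) of XGFP+ constitutive, 54.4% (45.3 to 63.3) of XGFPhigh, 89.8% (83.3 to 94.5) of XGFPintermediate and 76% (67.4 to 83.3) of XGFPlow cells. In ESCs, whose bulk libraries also held *Ddx4* reads, 4 of 24 cells had it (16.7%, 4.74 to 37.4), at deeper sequencing. All reads of the 24 ESCs together gave 5.23 RPM of *Ddx4* and 3.69 of *Dazl*, whereas every bulk ESC library held more *Dazl* than *Ddx4* reads. Pooled over the cells of a population, *Ddx4* was at 45.3 RPM (Poisson interval 43 to 47.7) in XGFP+ constitutive and 342 (338 to 346) in XGFPintermediate cells. The highest single value, 2360 RPM, was in an XGFPhigh cell, a population whose upper quartile was 46.6.

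**Figure D3:**
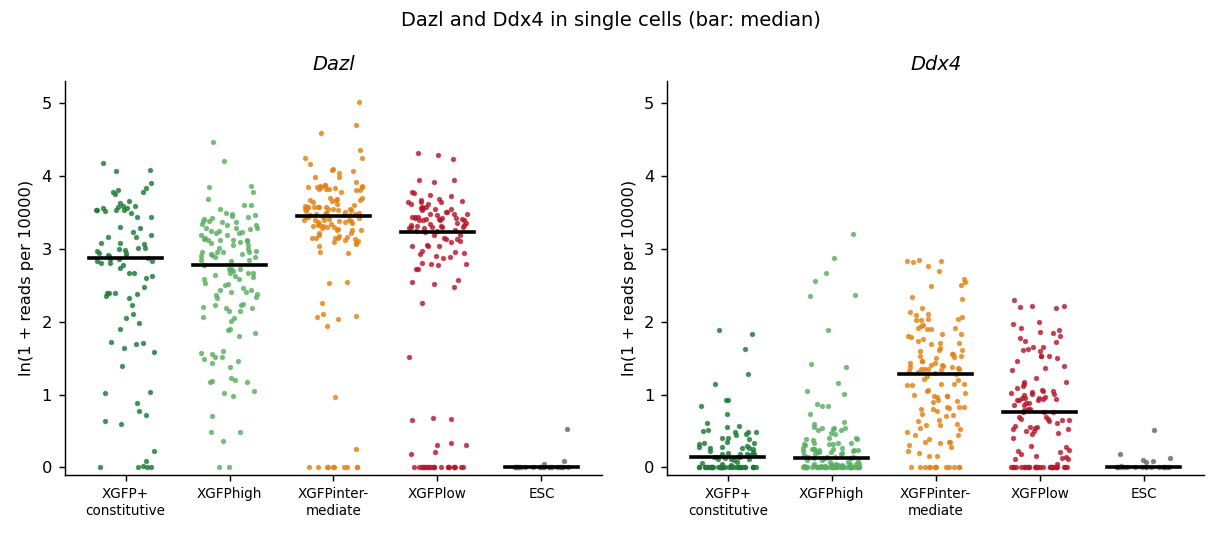
*Dazl* (left) and *Ddx4* (right) as ln(1 + reads per 10000) in every kept cell of the 4 rOvary populations and in ESCs, with a bar at the median. *Dazl* is present in most rOvary cells of each population, while most *Ddx4* values of XGFP+ constitutive and XGFPhigh cells lie near 0, with medians of 15.1 and 14.4 RPM.

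Both mRNAs were found in the same cell in 46 of 88 XGFP+ constitutive cells (52.3%, 41.4 to 63), 67 of 125 XGFPhigh cells (53.6%, 44.5 to 62.6), all but 13 XGFPintermediate cells (89.8%, 83.3 to 94.5) and 89 XGFPlow cells (73.6%, 64.8 to 81.2). *Dazl* without *Ddx4* was common in the first 2 populations, with 36 and 56 cells, and rare in XGFPintermediate cells, with 3, and XGFPlow cells, with 10. The reverse, *Ddx4* without *Dazl*, was seen in 4, 1, 0 and 3 cells, and the 0 of XGFPintermediate cells allows a share of up to 2.84%. Neither gene was detected in 2, 1, 10 and 19 cells. Among cells with *Ddx4*, *Dazl* was detected in 92% to 100%, while most cells of every population had *Dazl* whether or not they had *Ddx4*. The share with both genes was thus close to the share with *Ddx4*, which was 56.8%, 54.4%, 89.8% and 76% in the same order. No ESC of 24 held both (upper bound 14.2%).

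**Figure D4:**
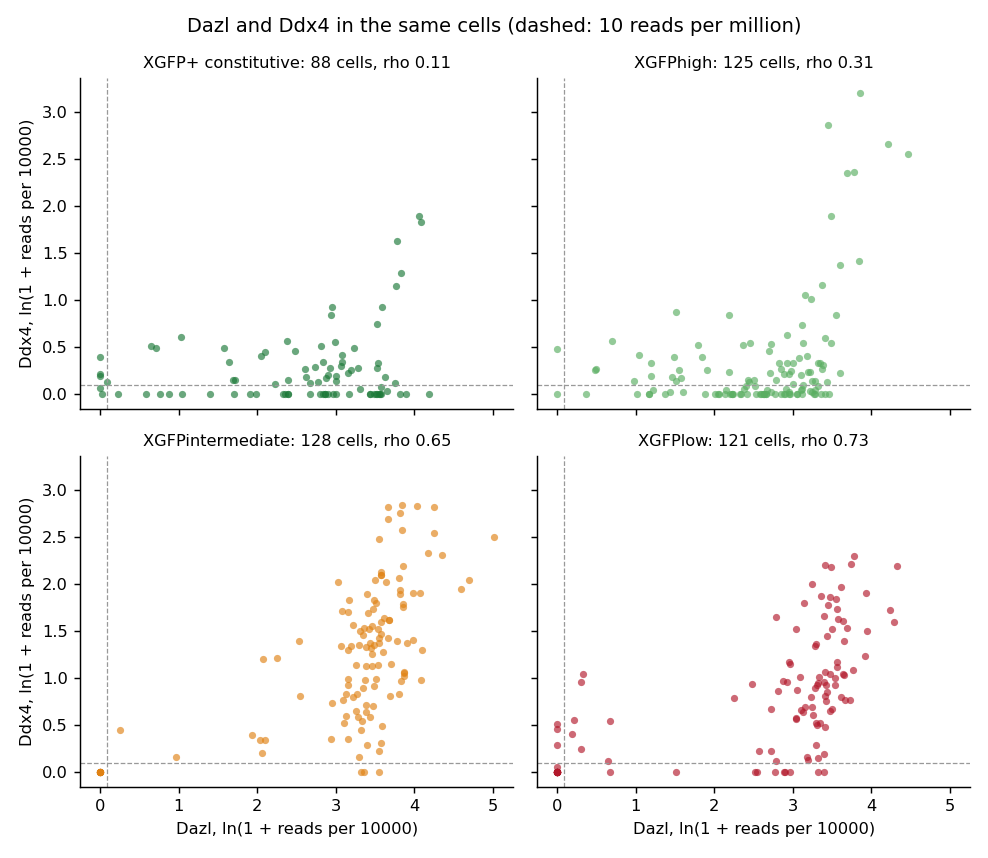
*Ddx4* against *Dazl* in the same cells, both as ln(1 + reads per 10000), with 1 panel per rOvary population and dashed lines at 10 RPM. In XGFP+ constitutive and XGFPhigh cells most points with *Dazl* lie near 0 for *Ddx4*. The exception is the XGFPhigh cells with 3000 RPM or more of *Dazl*, of which 12 of 13 had *Ddx4*, at a median of 562 RPM. In XGFPintermediate and XGFPlow cells *Ddx4* is spread over the whole range at high *Dazl*. There, cells without *Dazl* sit in the lower left corner, except 3 XGFPlow cells with *Ddx4*.

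The order was the same at equal depth. The XGFP+ constitutive cells had the fewest reads, and after thinning every cell to 200000 reads with a limit of 1 read the share with both genes was 56.6%, 64.5%, 89.8% and 73.5% in the same order, with 5, 1, 1 and 4 shallower cells left out. A limit of 50 RPM gave the first 2 populations shares of 22.7% and 21.6%, which reverses their order within overlapping intervals, against 80.5% and 62% in the other 2 populations. The library numbers of the cells from XGFP- PGCLCs fall into 5 runs, each with all 3 populations. In every run the share with both genes was higher in XGFPintermediate (81.2% to 96.4%) and XGFPlow cells (63% to 84%) than in XGFPhigh cells (28.6% to 66.7%). The median *Ddx4* level was higher in XGFPintermediate than in XGFPlow cells in 4 of the 5 runs, and the median *Dazl* level in 5 of 5. On the lane that held the XGFP+ constitutive cells, the shares were 4 of 14 XGFPhigh (28.6%), 13 of 16 XGFPintermediate (81.2%) and 11 of 15 XGFPlow cells (73.3%).

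**Figure D5:**
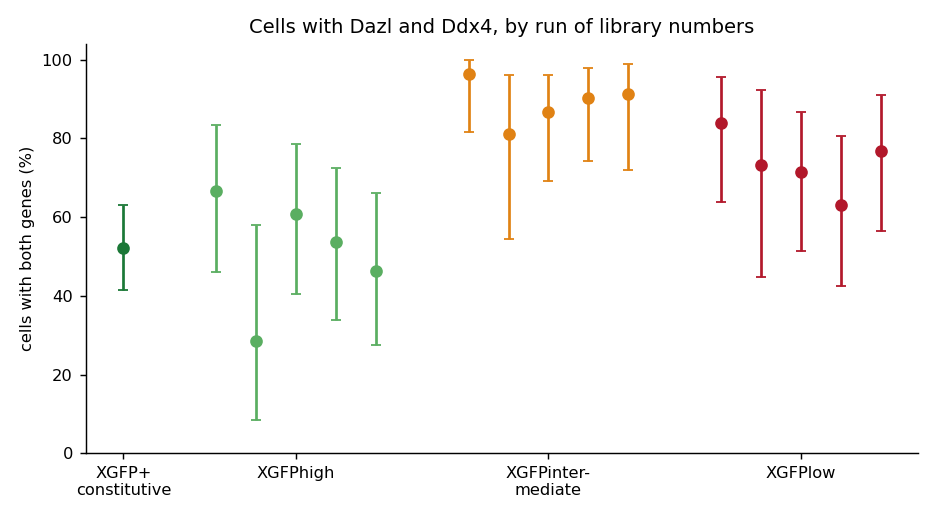
Share of kept cells with both *Dazl* and *Ddx4* (percent, at 10 RPM) in each run of library numbers, with exact 95% intervals; the XGFP+ constitutive cells form 1 run and each other population is split over the same 5 runs. XGFPhigh runs lie at 28.6% to 66.7% and XGFPintermediate runs at 81.2% to 96.4%.

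The level of *Ddx4* over ranges of *Dazl* differed between populations. In XGFPhigh cells with 1000 to 3000 RPM of *Dazl*, *Ddx4* was detected in 36 of 70 and its median was 10.3 RPM. In the 13 XGFPhigh cells with 3000 or more, 12 had *Ddx4* and the median was 562. XGFP+ constitutive cells showed no such step in share or median, with 11 of 23 cells and a median of 7.14 at 3000 or more. Their highest *Ddx4* value was 562.5 RPM in that range, against 152.5 at 1000 to 3000. XGFPintermediate cells had medians of 151 at 1000 to 3000 and 402 at 3000 or more, and XGFPlow cells 100.6 and 339.

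Spearman's rho between the 2 genes across the cells of a population was 0.11 in XGFP+ constitutive, 0.31 in XGFPhigh, 0.65 in XGFPintermediate and 0.73 in XGFPlow cells. The cells of a population share sorting, libraries and lanes, and rho is a description without a p. The last 2 values were lower without the cells that lacked *Dazl*. Among cells with *Dazl*, rho was 0.13, 0.32, 0.56 and 0.58, and among cells with both genes 0.26, 0.40, 0.57 and 0.53. Neither gene followed the reads per cell closely, with rho of -0.06 to 0.17. Per kilobase of exon, *Dazl* exceeded *Ddx4* in nearly every cell with both genes, by a median of 31 times in XGFP+ constitutive, 18.8 in XGFPhigh, 8.42 in XGFPintermediate and 12.1 in XGFPlow cells, and *Ddx4* exceeded *Dazl* in 5 cells, 1 XGFPintermediate and 4 XGFPlow.

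The cells without *Dazl* were checked for markers of other cell types, since rOvaries contain gonadal somatic and mesonephric cells. In the 10 XGFPintermediate cells without *Dazl*, no read of *Ddx4* or of the 4 later germ cell markers *Mael*, *Sycp3*, *Stra8* and *Tex101* was found. Their summed level of 8 gonadal somatic markers was 29.4 to 1246 RPM, against at most 164 in the cells with *Dazl*. In at least 1 cell, 7 of the 8 markers reached the limit, as all 8 did in the cells with *Dazl*. *Wt1*, of gonadal somatic cells, was detected in 8 of these 10 cells, *Kitl* in 7 and *Wnt4* in 4. *Foxl2* was in 2, *Gata4*, *Nr5a1* and *Amhr2* in 1 each, and *Fst* in 0. *Col3a1*, a collagen gene of stromal cells, was in 6, and the endothelial genes *Kdr*, *Cdh5* and *Tek* in 5, 4 and 1. In the 22 XGFPlow cells without *Dazl*, *Mael* and *Tex101* were at 0 while *Stra8* was detected in 3 and *Sycp3* in 1. Of the 6 PGCLC markers, *Nanos3* was in 11, *Dnd1* in 6, *Prdm1* and *Tfap2c* in 5 each, and *Prdm14* and *Dppa3* in 4 each. *Nanos3*, the highest of these, was in 38 of the 99 XGFPlow cells with *Dazl*. In the 22 cells without *Dazl* the gonadal somatic sum ran from 0 to 2616.7 with a median of 17.4, and *Wt1* and *Col3a1* were each in 3 cells. The 6 XGFP+ constitutive cells without *Dazl* had at most 89.1 RPM of gonadal somatic markers. What part these cells have in the lower *Dazl* share of XGFPlow cells was not tested.

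The study kept germ cells by a limit of 1 on *Dazl* and by a filter on allelic reads, which was not applied here. Its methods call the limited value normalized and scaled. In its results the limit is given as a log2 value per 10000 counts, which is 100 RPM if 1 is added before the log. Read as a natural log, as single-cell software commonly writes such values, it is 172 RPM, and then 76 XGFP+ constitutive and 91 XGFPlow cells remained. *Ddx4* was missing from 55 XGFPhigh and 3 XGFPintermediate cells past that limit. Within them *Ddx4* was detected in 57.9% (46 to 69.1) of XGFP+ constitutive, 53.4% (44 to 62.6) of XGFPhigh, 97.4% (92.6 to 99.5) of XGFPintermediate and 90.1% (82.1 to 95.4) of XGFPlow cells. With the limit at 100 RPM the shares were 57%, 54.2%, 97.4% and 90.1% in the same order. The order of the populations in *Ddx4* was thus the same in cells chosen for *Dazl*.

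*Stra8*, a gene of meiotic entry, was at a median of 488 and 376 RPM in XGFP+ constitutive and XGFPhigh cells and of 2554.1 and 2149 in XGFPintermediate and XGFPlow cells. In XGFPintermediate cells, *Ddx4* was detected in 97.4% of the cells with *Stra8* and in 4 of 14 without (28.6%). Those 14 include all 10 cells without *Dazl*, none of which had *Ddx4*, so this difference is not one among cells with *Dazl*. In XGFP+ constitutive cells, it was in 42 of 76 with (55.3%) and 8 of 12 without (66.7%), so that *Stra8* did not mark the cells with *Ddx4* there. *Sycp3* went with both genes in XGFPintermediate cells, with rho of 0.71 to *Dazl* and 0.68 to *Ddx4*, and hardly in XGFP+ constitutive cells, with 0.10 and 0.23. The XGFPintermediate values include the 10 cells without *Dazl*, which also lacked *Sycp3*.

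*Nanog* and *Dppa3* mark earlier primordial germ cells. The rank correlation of *Nanog* to *Dazl* was -0.36, -0.58, -0.34 and -0.20 in XGFP+ constitutive, XGFPhigh, XGFPintermediate and XGFPlow cells, and to *Ddx4* -0.09, -0.27, -0.27 and -0.16. That of *Dppa3* to *Ddx4* was -0.20, -0.31, -0.34 and -0.04, and to *Dazl* it was -0.36 in XGFPintermediate cells and 0.01 to 0.02 in the other 3 populations. The 22 XGFPhigh cells without *Nanog* had a median of 130.9 RPM of *Ddx4* and 2888.2 of *Dazl*, against 8.48 and 1288 in the cells with it. In the 10 XGFPhigh cells without *Dppa3* the medians were 958 and 4086, against 13.2 and 1384 in the other XGFPhigh cells. Over all kept cells, also those without *Dazl*, the share of cells with *Ddx4* ran the other way in XGFPintermediate and XGFPlow cells. It was 96.6% with and 75.6% without *Dppa3* in XGFPintermediate cells, and 87.5% and 45.5% in XGFPlow cells, where the cells without *Dppa3* had a median *Dazl* level of 0. For *Nanog* these shares were 97% with and 87.4% without in XGFPintermediate cells, and 81.4% and 73.1% in XGFPlow cells.

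Among 9171 other genes detected in at least 20% of kept rOvary cells, the likeness to *Ddx4*, as the mean of rho over the 4 populations, was highest for *Zcwpw1* (0.55), which encodes a reader of meiotic histone marks, *Slc25a31* (0.54), a mitochondrial ADP/ATP carrier gene of germ cells, and *Syce1* (0.54), a synaptonemal complex gene. *Dazl* was at rank 23 with 0.45. The genes most like *Dazl* were *1700029F09Rik* (0.66), the Tudor domain kinase gene *Stk31* (0.66) and the synaptonemal complex gene *Sycp1* (0.61), and *Ddx4* was at rank 55.

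Of the nuage list, *Mael* and *Mov10l1* went with *Ddx4* in XGFPintermediate cells, with rho of 0.76 and 0.63, and in XGFPlow cells, with 0.75 and 0.64. *Tdrkh*, a Tudor domain gene singled out after its values were seen, was detected in 28.4% of XGFP+ constitutive and 40.8% of XGFPhigh cells and in 91.4% of XGFPintermediate and 83.5% of XGFPlow cells, an order much like that of *Ddx4*. *Gtsf1* had another order, with 60.2%, 47.2%, 45.3% and 19.8%. *Fkbp6* was detected in 85.1% to 94.4% of the cells in every population.

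The authors' X-linked allelic ratios, the 129S1/SvImJ share of reads per X-linked gene, were averaged per cell for 417 of the kept cells. The median of the cells' mean ratio was 0.477 in XGFP+ constitutive, 0.473 in XGFPhigh, 0.338 in XGFPintermediate and 0.299 in XGFPlow cells. Within XGFPlow cells, rho with this ratio was 0.51 for *Dazl* and 0.57 for *Ddx4* over 88 cells, and within XGFPintermediate cells 0.29 and 0.34. Within XGFPhigh cells it was -0.20 and -0.24 over 125 cells, and within XGFP+ constitutive cells 0.20 and -0.02 over 85 cells. The points within a population share its gate on GFP, which was itself made on an X-linked gene.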

How the data were processed

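The bulk table holds normalized signal values, which the authors made from total RNA libraries by alignment with STAR to an SNP-masked mm10 genome, counting with HTSeq 0.6.1 and division by DESeq2 1.16 size factors. All deposited values were whole reads within 0.01 read after multiplying back. The single-cell table holds read counts per gene and well as deposited by the authors. The X-linked allelic ratios are a fraction per gene and cell, as deposited by the authors. *Ddx4* allelic ratios were planned and not analysed here.

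Bulk values were tested as log2(value + 1) with limma-trend 3.58.1 (R 4.3.3), with Benjamini-Hochberg adjustment over the 16281 genes with a mean above 10, and the fit was tested on simulated data. The ratio was tested by exact permutation (numpy 2.4.6), and the single-cell intervals were computed with scipy 1.17.1. Alternatives used edgeR 4.0.16 and DESeq2 1.42.0 on the recovered counts. Deviations of same-numbered XGFP+ and XGFP- PGCLC libraries correlated at 0.135 to 0.307, so these numbers pair the libraries; in the other pairs of groups r was -0.0105 to 0.16 and not above 0.1 for every number. Total reads were 29778299 to 46533858 per bulk library.

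Each well held 1 sorted cell, and no doublet caller was run. The 2 genes and all lists were chosen with earlier results of these data known. One member of the list of DAZL targets is not reported here. Named were the other list members called between XGFP- and XGFP+ PGCLCs or without a row, and the 3 genes most like each member. *Boll*, *Tdrd1*, *Tdrd7*, *Tdrd9*, *Piwil4*, *Nanos3*, *Tdrkh*, *Wt1* and *Col3a1* were added after their values were seen. So were the counts of the other gonadal somatic, endothelial and PGCLC markers in cells without *Dazl*. Labels and methods differ on the PGCLCs per rOvary and on read length, which was not settled, and the 94 XGFP+ constitutive wells used are fewer than the paper counts; any others were not analysed here.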

Additional observations from a re-analysis of the deposited data

Results flagged for a closer look

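In 3 of 96 gene and group combinations of 4 libraries, 1 library lay further from the others than Dixon's 95% critical value for the gap over the range, where chance gives about 5%. *Ddx4* in EpiLC replicate 2 was at 614.1 normalized counts against 494.3 to 510.5 in the other EpiLC libraries (gap over range 0.865). *Casp2* in XGFP+ PGCLC replicate 4 was at 2405.6 against 2180.3 to 2212.7 (0.856). *Tdrd5* in ESC replicate 2 was at 34.6 against 20 to 20.4 (0.973).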

How the results depend on the processing

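The *Ddx4* fold changes kept direction and call in all 60 values over the 6 comparisons and 10 alternatives, and in all 48 without 1 library. For *Dazl*, EpiLCs against ESCs (-1.27) passed on the compared groups alone (limma FDR = 6.3e-05), also with the replicate block, an alternative chosen after seeing the data (limma FDR = 6.8e-04). Without 1 library, *Dazl* in XGFP- PGCLCs ranged from -0.37 to 0.51 against EpiLCs, the negative value without XGFP- replicate 4, and from -1.64 to -0.76 against ESCs, passing without that library; the cause was not tested. Every group holds replicate numbers 1 to 4, so the replicate block leaves the fold changes as they were. With it, limma gave -4.05 (FDR = 3.0e-07) for *Dazl* and -1.06 (FDR = 7.5e-06) for *Ddx4* between XGFP- and XGFP+ PGCLCs. The block changed no call of either gene in the fit over all libraries.

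The replicate block cannot change the differences in the log2 ratio of *Dazl* to *Ddx4* (-2.85, 4.42, 1.43, -2.98 and 1.57), as every group holds each number. The exact paired permutation test of 4 pairs cannot go below p = 0.125, the value of each. Without 1 library the ratio difference ranged from 1.05 to 1.70 for XGFP- PGCLCs against EpiLCs (adjusted exact p = 0.0857 without any 1 EpiLC library) and from -1.80 to -1.15 against ESCs (adjusted exact p = 0.0286 without XGFP- replicate 4).

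The share of cells with both genes moved with the limit. In XGFP+ constitutive cells it was 22.7% at 50 RPM. In XGFPhigh cells it was 67.2% at 1 read, 21.6% at 50 RPM, 64.5% after thinning and 28.6% on the lane of the constitutive cells. In XGFPintermediate cells it was 80.5% at 50 RPM, 97.4% under the study's *Dazl* limit on either log scale (log2 added after seeing the data) and 81.2% on that lane, and in XGFPlow cells 62% and 90.1% under the first 2 of these. The rank correlation moved to 0.26 in XGFP+ constitutive cells with both genes, and in XGFPlow cells to 0.53 with both genes and 0.58 with *Dazl*, the last added after seeing the data. With 1 culture per population, single-cell values have no replicate check.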
